A study of Mus musculus with 24 samples.

Results

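The clustered histone genes are the mouse H2A, H2B, H3 and H4 genes named for the arrays in which most of them sit. They were taken by name, as every row of the deposited table whose symbol starts with Hist and a cluster number or follows the newer H2ac, H2bc, H3c or H4c numbering. This gave 60 genes of 55291 symbols, namely 19 H2A, 17 H2B, 12 H3 and 12 H4 genes. In the GENCODE M21 annotation of GRCm38, 50 lie on chromosome 13 and 10 on chromosome 3, and 2 are pseudogenes (Hist1h2al and H2ac14). Hist1h2al lies outside the array of chromosome 13, at chr13:51202727-51203065, where the last of the other members, H2ac1, starts at 23934462. The values come from bulk RNA-seq of dendritic cells grown from bone marrow with GM-CSF. Each culture came from an individual mouse of the strain B6, C57 or PWD, and was left without treatment or given lipopolysaccharide (LPS), the bacterial outer membrane component that Toll-like receptor 4 senses, at 10 ng/ml for 6 hours. The 6 groups hold 4 libraries each, 24 in all. PWD is a wild-derived inbred strain. The labels do not say how the lines called B6 and C57 differ, and age and sex were not used here. No transgene or deletion is named for any group.

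Clustered histone genes supply the bulk of the core histones around which newly copied DNA is wrapped. H3 pairs with H4 and H2A pairs with H2B inside the nucleosome. Their transcription is tied to DNA synthesis through NPAT, and their messages end in a conserved stem-loop instead of a poly(A) tail. The stem-loop is bound by SLBP, which directs 3′ end formation, translation and timely decay of the message. Variant histones such as H3.3 and H2A.Z are made from genes outside the clusters, throughout the cell cycle and with polyadenylated messages. Bone marrow cultured with GM-CSF holds dividing precursors beside differentiated dendritic cells and macrophages.

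The stem-loops are shown because they are the feature that sets this family apart from other messages. A search for a stem of 6 base pairs, opening with GG, around a loop of 4 bases that starts with TT was run on the reference bases after each stop codon. Of 44 members with at least 16 annotated bases there, 37 held it (84.1%), 21 to 58 bases after the stop codon, against 60 of 21026 other protein-coding genes (0.285%). In the lines below the stem and loop are in capitals, written 5′ to 3′ as DNA. H2bc8, H2ac18 and H3c3 stand for the H2B, H2A and H3 genes. The 3 H4 genes, which differed in level between strains as described further on, share a stem that differs from that of the other classes.
H2bc8 (gene at chr13:23571396-23572013, plus strand): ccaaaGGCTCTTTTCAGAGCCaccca
H2ac18 (gene at chr3:96245497-96246082, plus strand): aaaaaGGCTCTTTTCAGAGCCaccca
H3c3 (gene at chr13:23744973-23745602, minus strand): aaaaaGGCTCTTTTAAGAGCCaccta
H4c6 (gene at chr13:23551258-23551648, minus strand): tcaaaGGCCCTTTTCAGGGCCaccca
H4c8 (gene at chr13:23531050-23531519, plus strand): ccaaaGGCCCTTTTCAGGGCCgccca
H4c9 (gene at chr13:22040636-22041362, minus strand): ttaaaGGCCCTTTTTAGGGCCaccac

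The 7 members with 16 or more annotated bases but no such stem-loop were H2bc4, H2bc21, H3c13, H3c8, H4c1, Hist1h2bq and Hist1h2br. H2bc21 is annotated with 2192 bases after its stop codon, and H2bc4 with 742. Of the other 16 members, the pseudogenes Hist1h2al and H2ac14 have no annotated coding sequence. The rest have models that end at or close to the stop codon. The search says nothing about any of the 16.

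Promoters are shown for the pairs of H2A and H2B genes that are read outwards from a shared stretch. There were 13 such head-to-head pairs, with starts 176 to 306 bases apart. RefSeq promoter windows of GRCm38.p6, running from 250 bases before to 50 bases after the start, were matched for 53 members, with 2 windows for H2bc6, and searched on both strands. The CCAAT box (CCAAT) was in 46 of the 54 windows (85.2%) and in 37.4% of 32851 promoters of all genes. It was in every H2A, H2B and H3 window, but in only 3 of 11 H4 windows. The octamer (ATTTGCAT), known from H2B promoters as a binding site of OCT1, was in 7 of 16 H2B and 6 of 17 H2A windows and in no H3 or H4 window, against 1.74% of all promoters. Windows of head-to-head partners overlap, so the same site can be counted in an H2A and an H2B window, as for the octamer of H2ac8 and H2bc8. TATAAA was in 30 of the 54 windows (55.6%) against 13.6%. These motifs do not overlap each other in the windows below, where they are in capitals, and a match is not a shown binding site. The H2bc8 window is the example with all 3 motifs. The H2bc13 window also covers the whole stretch up to the start of H2ac13, a pair in which both genes were higher in PWD.
H2bc8 (GRCm38.p6 chr13:23571150-23571449, plus strand): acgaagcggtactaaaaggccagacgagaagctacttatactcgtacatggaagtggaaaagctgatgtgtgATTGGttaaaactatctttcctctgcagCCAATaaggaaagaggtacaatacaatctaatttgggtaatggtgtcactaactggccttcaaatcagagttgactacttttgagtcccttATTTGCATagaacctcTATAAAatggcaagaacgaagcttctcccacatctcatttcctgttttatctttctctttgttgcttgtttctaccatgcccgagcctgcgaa
H2bc13 (GRCm38.p6 chr13:21716134-21716433, minus strand): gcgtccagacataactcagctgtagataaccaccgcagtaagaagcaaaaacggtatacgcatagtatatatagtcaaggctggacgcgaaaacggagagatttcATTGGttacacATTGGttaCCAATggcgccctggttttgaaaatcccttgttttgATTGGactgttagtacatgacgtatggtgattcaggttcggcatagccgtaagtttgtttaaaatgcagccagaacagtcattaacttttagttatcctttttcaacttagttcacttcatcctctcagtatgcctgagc

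Many members are near copies of each other, which limits what a single gene's value means. Among the 54 members with another member of the same class and coding length, 42 had a copy that was at least 97% identical in coding sequence. Over 50-base windows of the coding sequence, the median member had 19.8% of windows found in no transcript of another annotated gene, and 12 members had none. Hist1h4m and Hist1h4n, H2ac18 and H2ac19, Hist1h2ao and Hist1h2ap, and Hist1h2bq and Hist1h2br were each identical over the whole coding sequence. Neither the labels nor the table say how reads were divided among such copies. Values of single copies are therefore uncertain, and class sums stand beside them.

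Expression is in TPM, a level scaled by gene length and by the total of each library. A gene was tested where it reached 1 TPM in at least 4 of the 24 libraries. That held for 54 of the 60 members, and the 6 others were H2ac1, H2ac14, H2bc1, H3c14, Hist1h2ao and Hist1h2br. H2ac1 and H2bc1 are testis histone genes and stayed near 0. H3c14 was listed at 0 in every library. Changes are differences of log2(TPM + 1) from a limma fit over all 13246 tested genes, and a gene was called where its Benjamini-Hochberg adjusted p over all of them was under 0.05.

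**Figure D1:**
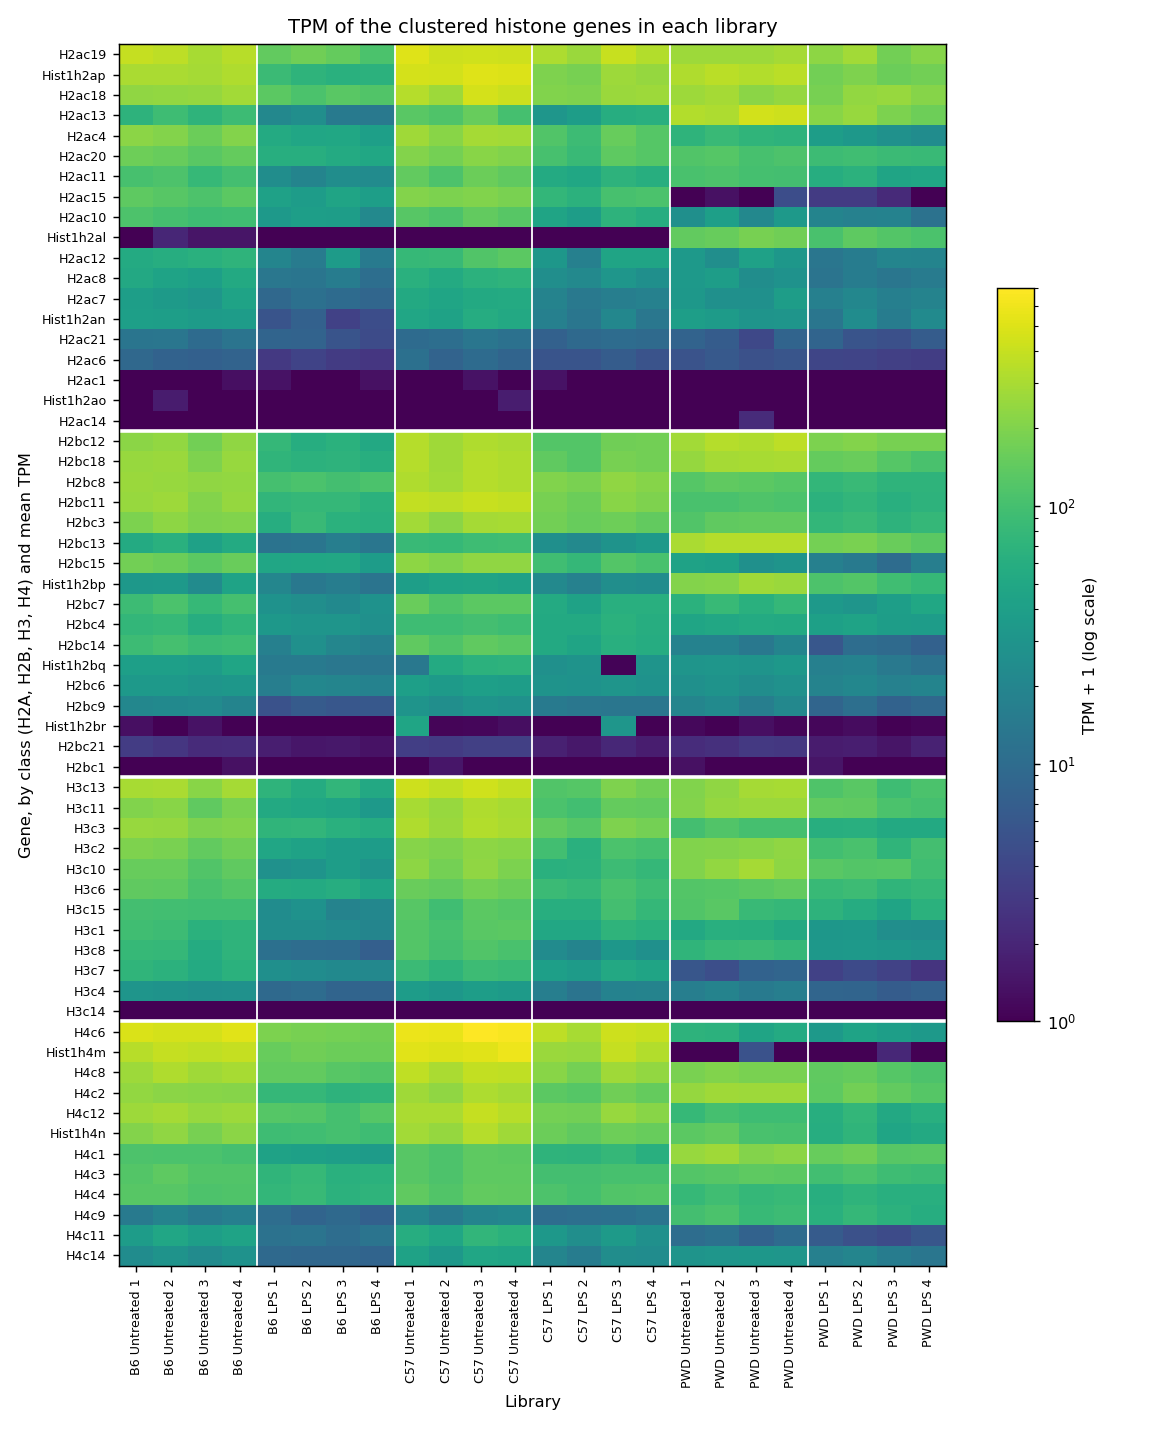
TPM + 1 on a log colour scale for each of the 60 clustered histone genes (rows, grouped by class and ordered by mean TPM) in each of the 24 libraries (columns). LPS columns are darker than the untreated columns of the same strain for most rows, and PWD columns differ from B6 and C57 in single rows such as Hist1h4m, H2ac15 and Hist1h2al.

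Together the members made up 0.735% ± 0.0541 (SD, n = 4) of all TPM in untreated B6, 1.00% ± 0.0844 in untreated C57 and 0.642% ± 0.0269 in untreated PWD. In B6 their summed TPM was 7574, 7766, 6553 and 7489 in the untreated libraries and 2627, 2626, 2507 and 2268 after LPS. In C57 it was 10132, 8847, 10846 and 10271 without treatment and 4876, 4339, 6197 and 5611 after LPS. In PWD it was 6024, 6582, 6486 and 6592 without treatment and 3743, 4184, 3426 and 3369 after LPS. Untreated and LPS libraries did not overlap in any strain, and untreated C57 lay above every other library.

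Relative to the untreated culture with the same number, the summed TPM after LPS was 34.3% ± 3.27 (SD, n = 4) in B6, 52.2% ± 4.35 in C57 and 57.4% ± 6.35 in PWD. The highest of the B6 mice, at 38.3%, was below the lowest C57 mouse, at 48.1%, while C57 and PWD overlapped. A set of abundant structural RNAs took 28.8 to 44.2% of a library's TPM and differed between libraries of a group. With those RNAs taken out of the total, the same ratios were 33.8% ± 1.88 in B6, 53.7% ± 0.867 in C57 and 59.5% ± 0.772 in PWD, and no 2 strains overlapped. No test was made on these sums. In bulk cultures, fewer cells of a type and less RNA per cell cannot be told apart.

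**Figure D2:**
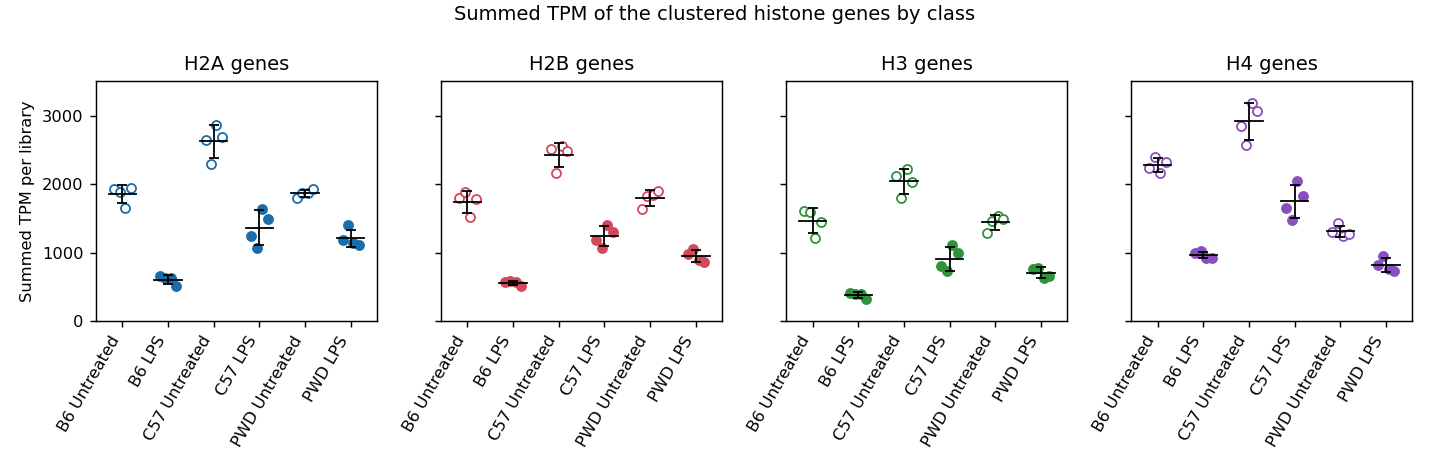
Summed TPM of the H2A, H2B, H3 and H4 members per library (open points untreated, filled points LPS), with the mean and SD of the 4 libraries in black. Every class is lower after LPS in each strain, and the H4 sum of untreated PWD (1311) lies below that of untreated B6 (2281), while the libraries of those groups overlap in the other 3 classes.

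The fall after LPS was found across the family and in all strains. In B6, 53 of the 54 tested members fell and 0 rose, where over all genes 59.7% were called lower and 11.9% higher. The 53 include Hist1h2al, which was at most at 1.00 TPM in B6 and passed the filter through its PWD values. In C57, 51 fell and 0 rose, against 52.2% lower and 10.4% higher over all genes. In PWD, 48 fell and 0 rose, against 52.4% lower and 11.1% higher. The median change of the members on the log2(TPM + 1) scale was -1.63 in B6, -1.02 in C57 and -0.86 in PWD, beside -0.43, -0.32 and -0.32 over all tested genes. Relative to those, the members lay lower by a further 1.20, 0.69 and 0.54. There were 47 members that fell in all 3 strains. The share of all genes called lower in all 3 was not computed, so this count has no background beside it. Those not called were Hist1h2bq in B6, H2ac21, Hist1h2al and Hist1h4m in C57, and H2ac15, H2ac18, H2ac19, H2ac21, Hist1h2bq and Hist1h4m in PWD. Scaling each library by median of ratios, which puts the median of all genes at about 0, left 50 members lower in B6, 43 in C57 and 34 in PWD, and 0 higher. The all-gene shares above belong to the fit without this scaling, and none is given for these counts.

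**Figure D3:**
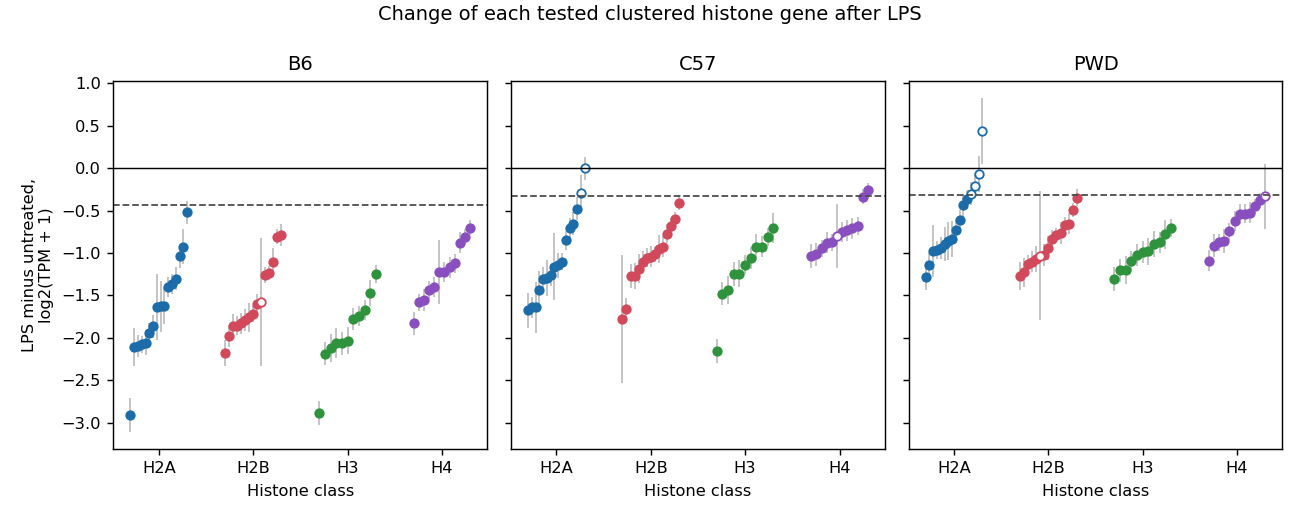
LPS minus untreated on the log2(TPM + 1) scale with its standard error for each of the 54 tested members, by class and strain (filled points were called at an adjusted p under 0.05 in limma, open points were not; the dashed line is the median of all tested genes). Most members lie below the dashed line, with the lowest at -2.91 in B6, -2.15 in C57 and -1.31 in PWD.

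H3 genes had the lowest median change in B6 and PWD, and in C57 H3 and H2A were nearly level. The medians of the 11 tested H3 members were -2.03 in B6, -1.14 in C57 and -0.98 in PWD, and all 11 fell in each strain. The 15 tested H2B members had medians of -1.72, -1.05 and -0.94, with 14, 15 and 14 called lower. The 16 tested H2A members had medians of -1.63, -1.15 and -0.79, with 16, 14 and 12 called lower. The 16 in B6 again include Hist1h2al. The 12 H4 members had the smallest median changes, -1.22, -0.77 and -0.58, with 12, 11 and 11 called lower. The summed TPM gave the same order in B6, where H3 after LPS was at 26.3% ± 4.26 (SD, n = 4) of its untreated level, H2B at 32.1% ± 3.59, H2A at 32.8% ± 4.69 and H4 at 42.3% ± 2.00. The H2B and H2A values overlapped. In PWD the H2A sum stayed highest relative to untreated, at 64.9% ± 7.33, beside 62.3% ± 3.67 for H4, and these overlapped. The differences between classes were not tested.

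Among H3 genes, which encode the histone that carries most of the well-studied tail modifications, H3c13 of the chromosome 3 cluster had the highest mean. In B6 it was at 293, 301, 216 and 290.1 TPM without treatment and at 70.1, 55.6, 74.3 and 51.0 TPM after LPS. In PWD it was at 203, 233, 292 and 298 TPM and after LPS at 114, 129, 90.9 and 108 TPM. Treated and untreated libraries did not overlap in either strain, and the B6 library of replicate 3 was low among the untreated ones. Its log2 change was -2.12 (SE 0.16, limma adjusted p = 4.49e-11) in B6, -1.44 in C57 and -1.20 in PWD. H3c11, of the chromosome 13 cluster, went from 199.5, 219.7, 142 and 186 TPM to 52.4, 48.8, 45.1 and 33.4 TPM in B6. In C57 it went from 299, 251, 319 and 298 TPM to 109, 95.6, 149.7 and 144 TPM, so that each C57 library after LPS held more than any B6 library after LPS. H3c3 went from 252, 244, 195 and 209 TPM to 72.2, 74.4, 63.2 and 56.6 TPM in B6, and from 97.7, 118, 100.3 and 102 TPM to 59.2, 62.1, 52.4 and 52.6 TPM in PWD. H3c3 thus started lower in PWD and reached a range that overlapped B6 after LPS.

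H3c8 had the largest fall of all members in C57 and PWD and the second largest in B6. It was at 80.1, 77.4, 55.0 and 70.7 TPM in untreated B6 and at 10.3, 9.36, 9.02 and 6.23 TPM after LPS. In PWD it was at 70.8, 81.2, 85.9 and 77.8 TPM and after LPS at 31.7, 33.9, 30.9 and 28.5 TPM. The untreated libraries of B6 and PWD overlapped, while after LPS all PWD libraries were above all B6 libraries. The log2 changes were -2.89 in B6, -2.15 in C57 and -1.31 in PWD (SE 0.14 each).

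H2B genes encode the partner of H2A. H2bc12, whose stem-loop has another loop than that of H2bc8, went from 226, 239, 174 and 235 TPM to 76.9, 58.9, 64.8 and 50.9 TPM in B6. In PWD it went from 284, 336, 319.8 and 363 TPM to 193, 208, 183 and 181 TPM. The changes were -1.79 (SE 0.13, limma adjusted p = 3.37e-12) and -0.76 (SE 0.13, adjusted p = 1.3e-05). H2bc18, of chromosome 3, fell in B6 from 252, 261, 195 and 251 TPM to 72.2, 66.6, 68.1 and 59.3 TPM, a change of -1.83. H2bc8, whose stem-loop and promoter are printed above, fell from 264, 255, 233 and 239.6 TPM to 100.3, 109, 98.4 and 109 TPM, a change of -1.24 (SE 0.08). The groups did not overlap for any of these genes. H2bc6, also on chromosome 13, had a smaller change of -0.81 in B6, from 32.3, 33.9, 29.3 and 31.4 TPM to 15.6, 19.6, 18.7 and 17.2 TPM. Among the lowest in level was H2bc21, with 2192 annotated bases after its stop codon and no stem-loop found in them. It was between 1.27 and 2.23 TPM in untreated B6 and between 0.372 and 0.717 TPM after LPS, a change of -0.79.

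H2A genes include the pair of exact copies H2ac18 and H2ac19 on chromosome 3. H2ac19 went from 392, 367, 293 and 344 TPM to 145, 167, 146 and 109 TPM in B6, a change of -1.30 (SE 0.14, limma adjusted p = 6.05e-09). H2ac18 went from 234, 240.1, 250.3 and 281 TPM to 134, 109, 129 and 117 TPM, a change of -1.04. In PWD the values overlapped between treatments for both genes. H2ac19 was at 269, 268, 268 and 285 TPM without treatment and at 231, 281, 171 and 214 TPM after LPS, with a change of -0.30 (adjusted p = 0.0567). H2ac18 was at 267, 290.0, 222 and 247 TPM and at 184, 240.5, 256 and 212 TPM, with a change of -0.21 (adjusted p = 0.195). Their sum was 536, 558, 491 and 532 TPM in untreated PWD and 415, 521, 427 and 426 TPM after LPS, so the ranges still overlapped. This sum can still depend on the gene lengths used for TPM and on how shared reads were handled, neither of which is stated. In B6 the sum went from 544 to 626 TPM down to 225 to 279 TPM.

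Hist1h2ap, the other H2A gene with a mean among the highest 3, is an exact copy of Hist1h2ao, to which almost nothing was assigned. It went from 302, 300.3, 285 and 323 TPM to 85.2, 70.5, 63.2 and 66.2 TPM in B6, and from 323, 351, 329.7 and 357 TPM to 171, 194, 160.0 and 172 TPM in PWD. The changes were -2.08 and -0.96 (SE 0.10 each). Hist1h2an had the largest fall of all members in B6, from 39.6, 38.1, 35.9 and 36.8 TPM to 4.54, 6.60, 2.54 and 3.67 TPM, a change of -2.91 (SE 0.20, limma adjusted p = 2.18e-11). In PWD it went from 38.5, 35.8, 28.5 and 29.8 TPM to 12.0, 23.1, 14.5 and 21.9 TPM, a change of -0.89. The untreated ranges of B6 and PWD overlapped, and their ranges after LPS did not.

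H4 genes encode the partner of H3. H4c6, with the highest H4 mean, went from 482, 459, 458 and 518 TPM to 194, 183, 178 and 167 TPM in B6. In C57 it went from 582, 564, 685 and 659 TPM to 364, 297, 425 and 399.9 TPM. The changes were -1.40 and -0.75 (SE 0.12 each), and the groups did not overlap. H4c8 went from 264, 322, 274 and 297 TPM to 144, 144, 125 and 117 TPM in B6, and from 187, 199, 187 and 186 TPM to 139.9, 149, 124 and 112 TPM in PWD, changes of -1.12 and -0.54. H4c4 and H4c3, both on chromosome 13 with more than 500 annotated bases after the stop codon, were among the members that changed least. H4c4 went from 128, 126, 113 and 113 TPM to 75.7, 82.0, 66.8 and 69.4 TPM in B6 (change -0.70) and from 141, 117, 144 and 141 TPM to 111, 101, 117 and 120.3 TPM in C57 (change -0.26, SE 0.09, limma adjusted p = 0.0122). In C57 its ranges overlapped.

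The fall can also be set beside sequence features that had no part in choosing the members. In B6, the 35 tested members with a stem-loop had a median change of -1.58, and the 6 with annotated bases but none -1.51. The 13 without enough annotated bases, among them the pseudogene Hist1h2al, had a median of -1.76. The 10 members with 500 or more annotated bases after the stop codon had a median of -1.31, and the 44 others -1.73. The 11 with a promoter octamer had a median of -1.63, and the 37 with a promoter but no octamer -1.67. Members on chromosome 3 had a median of -1.40 (9 genes) and those on chromosome 13 one of -1.64 (45 genes). These are descriptions with no test, and the ranges of the members overlapped in each case.

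The response to LPS was largest in B6. The difference of LPS responses was tested in the same fit, and a positive value means a smaller fall in the strain named first. For PWD minus B6, 41 of the 54 tested members were higher and 0 lower, with 16% and 7.5% of all genes called in those directions. For C57 minus B6, 33 were higher and 0 lower, against 10.9% and 3.39%. The median differences of the members were 0.78 and 0.58, beside 0.14 and 0.12 over all genes. For PWD minus C57, 4 members were higher and 0 lower, against 5.41% and 5.99% of all genes, a share near the background, with a median of 0.17 beside 0.00. These 3 comparisons share libraries, so their counts are not independent of each other.

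The members with the largest differences were mostly H2A and H3 genes. For PWD minus B6, the largest differences were in H2ac15 (2.07, SE 0.55, limma adjusted p = 0.00993), Hist1h2an (2.02, SE 0.29, adjusted p = 1.79e-05) and H3c8 (1.58, SE 0.20, adjusted p = 1.22e-06). H2ac15 was nearly unmeasured in PWD, so its difference rests on values of 0 to 3.67 TPM, and it was not called with the replicate block, with a pseudocount of 0.1 TPM or with mice 3 and 4 alone. For C57 minus B6, they were in H3c15 (1.36, SE 0.25, adjusted p = 0.000607), Hist1h2an (1.23, SE 0.29, adjusted p = 0.00534) and Hist1h2ap (0.98, SE 0.15, adjusted p = 5.89e-05). H3c15 went from 97.9, 94.3, 92.5 and 92.2 TPM to 23.3, 27.3, 17.8 and 19.8 TPM in B6. In C57 it went from 125, 93.6, 134 and 123 TPM to 59.8, 59.9, 97.4 and 76.8 TPM, where a treated library reached above an untreated one. The members higher for PWD minus C57 were H2ac7 (0.91), H3c8 (0.85), H2bc13 (0.63) and H2ac20 (0.48). With mice 1 and 2 alone, Hist1h2an was not called for C57 minus B6, the count for that comparison was 12, and for PWD minus C57 it was 15.

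Other gene lists are set beside all tested genes, of which 59.7% were lower in B6, 52.2% in C57 and 52.4% in PWD, with medians of -0.43, -0.32 and -0.32. The 5 tested linker histone genes H1f1 to H1f5, which lie in the chromosome 13 cluster and encode the histone that binds DNA between nucleosomes, fell in all strains, with medians of -1.62 in B6, -1.003 in C57 and -0.81 in PWD. All 5 differed in response for PWD minus B6 (median 0.69) and for C57 minus B6 (median 0.66). Among 20 genes of G2 and mitosis, 20, 20 and 19 fell in B6, C57 and PWD, with medians of -1.65, -0.72 and -0.52. Of these, 18 had a smaller fall in PWD than in B6 (median 1.09) and 17 a smaller fall in C57 (median 0.91). Over all genes, 16% were higher and 7.5% lower for PWD minus B6 (median 0.14). For C57 minus B6 these shares were 10.9% and 3.39% (median 0.12). The topoisomerase gene Top2a changed by -1.60 in B6 and -0.59 in PWD, and Cdk1, for the kinase that drives entry into mitosis, by -1.46 and -0.51.

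Among 40 genes of DNA replication and S phase, 33 fell and 1 rose in B6, 35 fell in C57 and 38 fell in PWD, with medians of -0.89, -0.81 and -0.93. Their difference of responses for PWD minus B6 had a median of -0.06, with 2 genes higher and 3 lower, beside 16% and 7.5% of all genes. For C57 minus B6 it had a median of 0.17, with 2 higher and 2 lower, beside 10.9% and 3.39%. Pcna, the sliding clamp of DNA polymerase, changed by -0.85 in B6 and -0.95 in PWD. The genes of this list with a smaller fall in both other strains than in B6 were Ccna2, for a cyclin of S and G2 phase, with differences of 1.28 (PWD) and 1.09 (C57), and Rrm2, for a ribonucleotide reductase subunit, with 1.13 and 0.59. Summed TPM of the S phase list after LPS was at 52.5% ± 5.83 (SD, n = 4) of its untreated level in B6, 59.4% ± 5.23 in C57 and 51.6% ± 7.79 in PWD, where all strains overlapped. For the G2 and mitosis list these were 31.9% ± 3.34, 64.5% ± 8.18 and 71.1% ± 10.6, where B6 lay below both other strains. Neither list was recomputed without the structural RNAs, whose removal narrowed the spread of the histone ratios. The overlap of the S phase ratios is thus given only for TPM that includes those RNAs.

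The machinery that makes and handles histone messages had medians a little below those of all genes, and was called lower more often. Of 19 genes for transcription, processing and decay of histone messages, 16 fell and 1 rose in B6, 14 and 1 in C57, and 16 and 0 in PWD, with medians of -0.58, -0.37 and -0.44 beside -0.43, -0.32 and -0.32 over all genes. Over all genes 59.7% (B6), 52.2% (C57) and 52.4% (PWD) were called lower, a smaller share in each strain. Neither this difference nor that from the clustered genes was tested. Slbp, for the protein that binds the stem-loop, changed by -0.58 in B6, -0.37 in C57 and -0.39 in PWD, and its response did not pass the test of a difference for PWD minus B6 (0.18). Tut7, whose enzyme adds uridines to RNA ends including those of histone messages, rose by 0.52 in B6 and 0.59 in C57 and was named after its values were seen. Of 21 histone chaperone and assembly genes, 17 fell and 2 rose in B6 (median -0.69). Daxx, for the chaperone of the variant H3.3, rose by 1.46 in B6, 2.10 in C57 and 1.67 in PWD.

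Variant histone genes outside the clusters were called lower at a share near that of all genes in B6 (59.7%). In C57 and PWD their share was larger than that of all genes (52.2% and 52.4%). Of 10 tested, 6 fell and 1 rose in B6, 8 and 1 in C57, and 7 and 1 in PWD, with medians of -0.58, -0.52 and -0.34 beside the same all-gene medians. H3f3b, for H3.3, rose by 0.19, 0.39 and 0.52 in B6, C57 and PWD; it lay above the all-gene median of each. H3f3a, for the same protein, did not pass the test in B6 (0.00, from a mean of 637 TPM). H2ax, whose product marks DNA breaks, changed by -1.42 in B6, and Cenpa, the centromeric H3, by -1.92. The summed TPM of the variants was 1793 ± 158 (SD, n = 4) in untreated B6 and 1580 ± 109 after LPS, and these ranges overlapped.

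**Figure D4:**
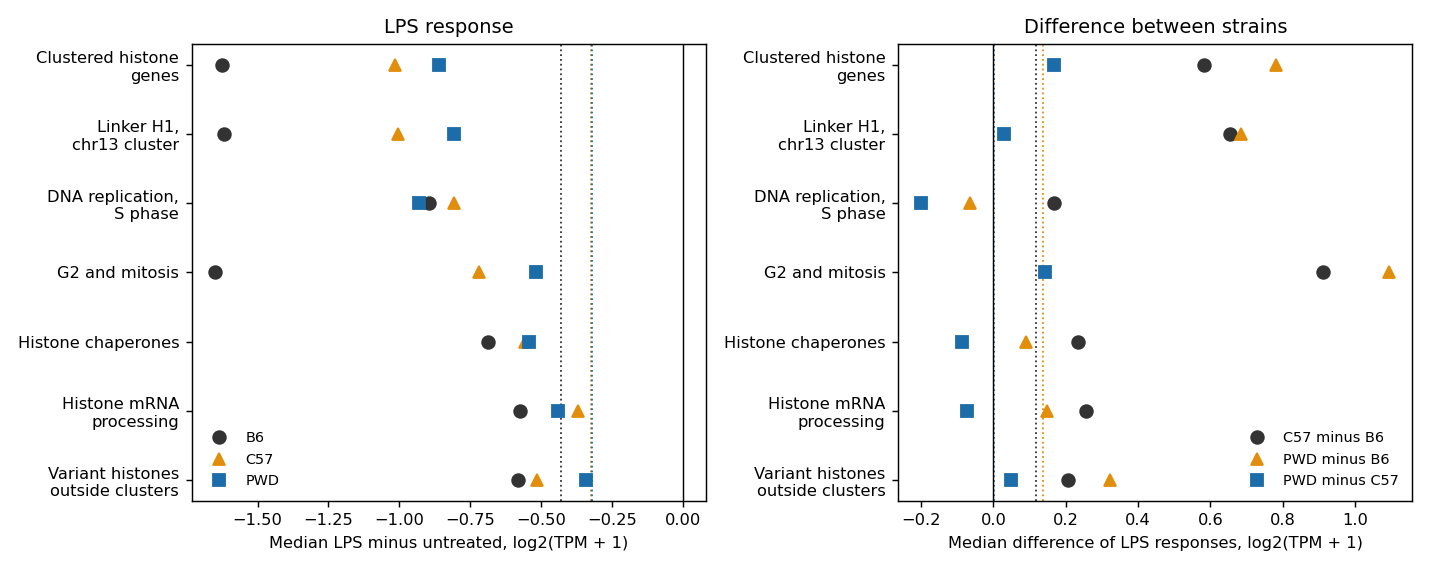
Median change after LPS in each strain (left) and median difference of LPS responses between strains (right) on the log2(TPM + 1) scale for 7 gene lists, with dotted lines at the median of all tested genes in the same colours. The clustered histone genes, the linker genes and the G2 and mitosis list lie to the left in B6 (-1.63, -1.62 and -1.65), while the S phase list has medians of -0.89, -0.81 and -0.93.

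C57 and B6 differed by a modest amount across many members. For C57 minus B6 without treatment, 36 members were higher and 1 lower, where 31.9% and 6.92% of all genes were called. The median was 0.40 beside 0.17 over all genes. Of the 13 neutrophil and granulocyte precursor markers, 12 were higher in untreated C57 and 0 lower (median 0.89), and after LPS 10 were higher and 0 lower (median 0.76), and their part in this result was not tested. The largest called were H2bc13 (0.71), H4c14 (0.69) and H3c11 (0.65). The member called lower was Hist1h2al, listed at 0 in every C57 library and at most at 1.00 TPM in B6. The count of higher members was 10 with median-of-ratios scaling, 22 with quantile normalization and 12 with mice 1 and 2 alone, and no tested member reached an absolute log2 change of 1. All-gene shares under these settings are not given. After LPS, 50 members were higher in C57 than in B6 and 0 lower, against 49.1% and 9.69% of all genes, with a median of 1.01 beside 0.29. H3c15 (1.68), Hist1h2ap (1.63) and Hist1h2an (1.61) had the largest differences.

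PWD differed from B6 gene by gene. Without treatment, 9 members were higher and 28 lower in PWD, against 37.2% and 19.7% of all genes, with a median of -0.36 beside 0.14. After LPS, 29 were higher and 13 lower, against 49.7% and 19%, with a median of 0.43 beside 0.28. With median-of-ratios scaling this split was 25 higher and 18 lower, with no all-gene share given for that scaling. Against C57, 6 were higher and 39 lower without treatment (all genes 20.1% and 26.2%, medians -0.71 and -0.04), and 9 were higher and 32 lower after LPS (all genes 24.4% and 29.8%, medians -0.53 and -0.05). Hist1h2al aside, single changes ranged from -7.96 to 2.84 for PWD minus B6 without treatment, and from -0.11 to 0.73 for C57 minus B6. Of the members at 5 TPM or more in either strain, 4 had at least 5 times the B6 mean in untreated PWD and 5 had the B6 mean at 5 times theirs or more. In C57 these counts were 1 and 0.

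Of the members far lower in PWD, Hist1h4m and H2ac15 were near 0, while H3c7 and H4c6 were still measured. Hist1h4m was at 345, 396, 369.8 and 388 TPM in untreated B6 and at 521, 494, 527 and 592 TPM in C57, but in PWD it was listed at 0 in 6 of 8 libraries and at 4.14 and 1.06 TPM in the libraries of replicate 3. Its exact copy Hist1h4n did not make up for this, since the sum of both was 133, 144, 111 and 104 TPM in untreated PWD against 551, 632, 551 and 611 TPM in B6. H2ac15 was at 135, 125, 111 and 135 TPM in untreated B6 and at 0, 0.358, 0 and 3.67 TPM in PWD. H3c7 was at 72.1, 67.1, 53.2 and 63.8 TPM in B6 and at 4.74, 3.82, 6.83 and 7.40 TPM in PWD (change -3.31, SE 0.15, limma adjusted p = 3.88e-16). H4c6 was at 482, 459, 458 and 518 TPM in B6 and at 68.1, 67.2, 44.9 and 54.4 TPM in PWD (change -3.03). None of these ranges overlapped, and for H4c6, H3c7 and H2ac15 at least 23.8% of coding windows are unique in the reference.

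Other genes were far higher in PWD. Hist1h2al, annotated as a processed pseudogene at chr13:51202727-51203065 on the minus strand, was at 144, 149.96, 180.2 and 167 TPM in untreated PWD and at 107, 137, 122 and 108 TPM after LPS. It was listed at 0 in all C57 libraries, in all B6 libraries after LPS and in 1 untreated B6 library, with at most 1.00 TPM in the others. H2bc13 was at 305, 337, 337 and 341 TPM in untreated PWD and at 53.8, 62.5, 41.5 and 53.2 TPM in B6 (change 2.63, SE 0.13, limma adjusted p = 8.23e-16). Its head-to-head partner H2ac13 was at 328, 313, 445 and 421 TPM in PWD and at 68.5, 90.2, 69.2 and 87.8 TPM in B6 (change 2.24). Hist1h2bp was at 206, 211, 273 and 259 TPM in PWD and at 32.1, 33.2, 22.6 and 43.6 TPM in B6 (change 2.84), while its head-to-head partner Hist1h2an did not pass the test (-0.19). H4c9 was at 98.5, 109.9, 82.4 and 88.7 TPM in PWD and at 13.8, 17.8, 13.98 and 15.8 TPM in B6 (change 2.55). C57 lay below PWD in each of these genes, with 78.5 to 93.0 TPM for H2bc13, above the B6 range, and 13.9 to 19.7 TPM for H4c9, which overlapped B6. Unique windows in the reference made up 9.9% for H2ac13 and 17.2% for H2bc13, below the member median of 19.85%. They made up 29.6% for Hist1h2bp, 29.7% for H4c9 and 32.4% for Hist1h2al.

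**Figure D5:**
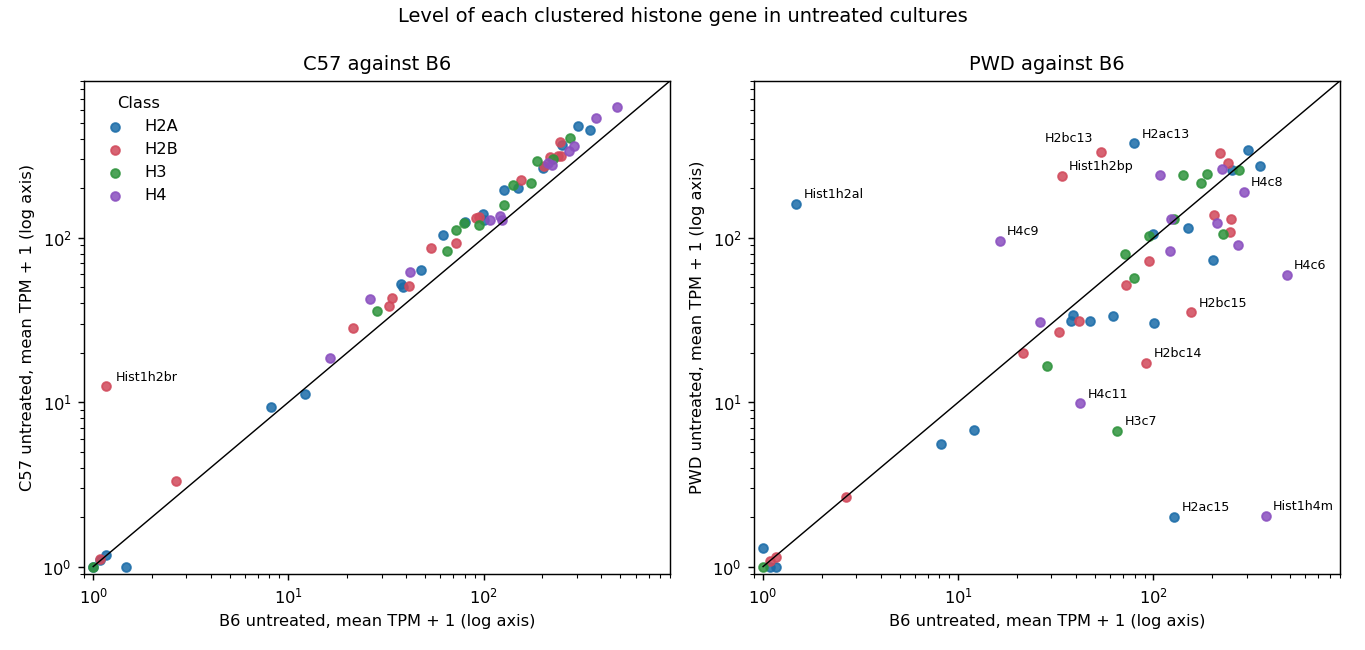
Mean TPM + 1 of each clustered histone gene in untreated C57 (left) and untreated PWD (right) against untreated B6, on log axes, coloured by class, with the line of equal levels. C57 points follow the line with Hist1h2br apart from it, while PWD points scatter around it, from Hist1h2al (161 mean TPM in PWD) to Hist1h4m (1.04 mean TPM in PWD).

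Head-to-head partners could be compared in both directions. H2ac15 and H2bc15 were both lower in untreated PWD than in B6 (-6.33 and -2.17), and H2bc14 was lower (-2.41) beside the pseudogene H2ac14, which was near 0. H2bc13 and H2ac13 were both higher. H2ac11 (0.10) and H2bc11 (-1.17), and H2ac12 (-0.91) and H2bc12 (0.58), had unlike changes, where H2ac11 did not pass the test. Unique coding windows made up 0.0% for H2ac11, 25.9% for H2bc11, 4.4% for H2ac12 and 4.8% for H2bc12. These single values can thus depend on how shared reads were divided. Levels within a pair also differed, with H2ac8 at 46.6 TPM and H2bc8 at 248 TPM in untreated B6, and H2ac20 at 148 TPM and H2bc21 at 1.66 TPM.

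By class, the mean summed TPM in untreated PWD and B6 was 1864 ± 53.1 and 1855 ± 134 (SD, n = 4 each) for H2A, 1801 ± 115 and 1746 ± 160 for H2B, and 1445 ± 110 and 1463 ± 185 for H3, and the libraries overlapped in each of these classes. For H4 it was 1311 ± 84.0 in PWD and 2281 ± 96.9 in B6, with no overlap. Which genes made up a class differed, with H2ac13 at 20.2% of the H2A sum in untreated PWD and 4.26% in B6, and H2bc13 at 18.3% and 3.02% of the H2B sum. These shares can depend on how reads of near copies were divided, which is not stated. The submitters' processing notes give mm10, a genome of B6 origin, and alignment of PWD reads to it was not tested.

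Hist1h2bq and Hist1h2br show how values of exact copies can trade places. In C57, Hist1h2bq was at 12.7, 53.7, 65.8 and 67.3 TPM without treatment and Hist1h2br at 45.6, 0.106, 0.127 and 0.268 TPM. After LPS, Hist1h2bq was at 25.9, 28.0, 0.0736 and 28.9 TPM and Hist1h2br at 0, 0, 30.4 and 0 TPM. Replicate 1 of the untreated and replicate 3 of the treated C57 cultures thus had most of the signal under the other name. The sum of the pair was steady, at 58.4, 53.8, 65.9 and 67.6 TPM without treatment and 25.9, 28.0, 30.5 and 28.9 TPM after LPS. In B6 the sum went from 39.8, 39.5, 36.9 and 46.5 TPM to 13.5, 13.3, 12.5 and 12.2 TPM, without overlap, although Hist1h2bq alone did not pass the test there. In C57 the call of Hist1h2bq (-1.77, SE 0.76, limma adjusted p = 0.0491) was lost in most alternatives and its value was 0.03 with replicates 1 and 2 alone.

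The cultures expressed the labelled cell type's markers and those of other myeloid cells. Of 13 macrophage and monocyte markers, 13 were at 1 TPM or more in each group. Of 13 conventional dendritic cell markers, 7 to 11 reached it, and none was at 0. Of 8 T and NK cell markers, at most 1 did, with a summed level of at most 2.50 TPM, and 1 to 4 of them were at 0 in a group, among them Cd3e and Ncr1 in untreated B6 and PWD. The 13 neutrophil and granulocyte precursor markers, of which 10 to 13 reached 1 TPM and none was at 0, had lower sums after LPS. Their summed TPM was 1852 to 2102 in untreated B6 and 1221 to 1480 after LPS, 2697 to 4322 and 1641 to 3041 in C57, and 1834 to 3082 and 830 to 1274 in PWD. Only the C57 ranges of these markers overlapped. The 10 erythroid precursor markers, with 1 to 4 at 1 TPM or more and 1 or 2 at 0 in each group, had sums of 19.8 to 29.5 TPM in untreated B6 and 9.13 to 12.7 TPM after LPS, 24.5 to 32.7 and 16.3 to 21.2 in C57, and 31.5 to 47.5 and 18.8 to 22.7 in PWD. The 8 B cell and plasmacytoid dendritic cell markers went the other way, with sums of 98.0 to 131 TPM in untreated B6 and 329.6 to 394 TPM after LPS, 94.9 to 108 and 222 to 248 in C57, and 32.2 to 41.9 and 96.3 to 123 in PWD, and 2 to 6 of them reached 1 TPM. The 8 stem and progenitor cell markers also had higher sums after LPS, with C57 ranges overlapping. Their sums were 31.6 to 48.8 TPM in untreated B6 and 51.99 to 63.2 after LPS. In C57 they were 30.2 to 37.2 and 34.8 to 45.9, and in PWD 7.59 to 14.04 and 19.6 to 21.7. The 9 mast cell, basophil and eosinophil markers had sums of 12.7 to 17.998 in untreated B6 and 91.1 to 102.8 after LPS. In C57 these were 14.6 to 29.8 and 36.2 to 58.5, and in PWD 104.6 to 201.5 and 90.2 to 201.9. The part of these lists in the fall of the histone genes was not tested. In untreated PWD the structural RNA share split by replicate number, at 41.9% and 40.3% for 1 and 2 and at 29.3% and 28.8% for 3 and 4, and the ratios without these RNAs are given with the sums.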

How the data were processed

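The deposited values are TPM, which the authors computed and deposited as 1 table of 55401 rows; rows of the same symbol were summed to 55291. STAR, edgeR and mm10 appear, with no versions, in the submitters' processing notes. No label or header states the annotation, the TPM method, RNA selection or the treatment of reads that match several genes. Read depth cannot be had from TPM, so depth is unknown and no counting interval is given; an exact 0 is reported as listed at 0. The protocols in the labels give a stranded library kit.

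Values were taken as log2(TPM + 1) for 13246 genes with at least 1 TPM in at least 4 of 24 libraries. limma 3.58.1 in R 4.3.3 fitted 6 group means (trend and robust empirical Bayes, 18 residual degrees of freedom), with Benjamini-Hochberg adjustment over all tested genes for each of 12 comparisons. Folds on this scale understate changes of low genes. The fit was tested on simulated data. Annotation came from GENCODE M21 (GRCm38) and promoters from RefSeq (GRCm38.p6), read with Python 3.11.15.

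The design text gives 4 mice per strain, so a number shared by an untreated and an LPS library within a strain was read as 1 mouse. Their deviations from group means correlated at 0.0513 to 0.176 over 12 pairs, and 9 of the 12 correlated best with their own partner. The main fit has no block.

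The members, the gene lists and the tests were chosen with earlier results of these data known, and the linker list was added afterwards by name. Named are, with their values, members with the 3 highest means per class and the 3 largest rises and falls per comparison, and up to 4 genes by mean from each other list; other genes were named after their values were seen, and the remaining members are given by range and count. Alternatives covered the pseudocount, filter, scaling, fit, replicate block, subsets of mice and single libraries.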

Additional observations from a re-analysis of the deposited data

Results flagged for a closer look

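Of 102 checks of a group of 4 libraries, 8 found a library apart from the others; chance gives about 1 in 20 such groups. Replicate 3 of untreated B6 was low in the H2A sum (1660 TPM, the others 1890 to 1940), in H2bc18 (195 TPM, the others 251 to 261) and in H3c13 (216 TPM, the others 290 to 301). In untreated C57, H4c8 was low in replicate 2 (306 TPM, the others 375 to 386). In untreated PWD, H4c8 was high in replicate 2 (199 TPM, the others 186 to 187) and H2ac19 in replicate 4 (285 TPM, the others 268 to 269). Hist1h4m was at 4.14 TPM in untreated PWD replicate 3 and at 1.06 TPM in PWD LPS replicate 3, with the others listed at 0.

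Responses to LPS differed between strains in the interaction test for 41 members (PWD minus B6), 33 members (C57 minus B6) and 4 members (PWD minus C57). The largest called were H2ac15 (2.07), Hist1h2an (2.02) and H3c8 (1.58) for PWD minus B6. For C57 minus B6 they were H3c15 (1.36), Hist1h2an (1.23) and Hist1h2ap (0.977), and for PWD minus C57 they were H2ac7 (0.908), H3c8 (0.845) and H2bc13 (0.633).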

How the results depend on the processing

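Counts of called members kept within 1.5 times of those reported in most alternatives. They are given without the all-gene share of each alternative. For C57 minus B6 without treatment, where 37 were called, the count was 11 with median-of-ratios scaling, 23 with quantile normalization and 12 with mice 1 and 2 alone. For the difference of responses, C57 minus B6, it was 12 with mice 1 and 2 alone. For the difference of responses, PWD minus C57, where 4 were called, it was 2 with no filter, 7 with median-of-ratios scaling, 9 with quantile normalization, 7 without structural RNA and 15 with mice 1 and 2 alone. The cause was not tested. Asking also for an absolute log2 change of 1 left 28 after LPS in C57, 14 in PWD, and for strains without treatment 18 (PWD minus B6), 0 (C57 minus B6) and 23 (PWD minus C57). After LPS it left 22, 27 and 23 for the same pairs, and for differences of responses 14 (PWD minus B6), 2 (C57 minus B6) and 0 (PWD minus C57); this rule is stricter by construction.

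Leaving out single libraries gave 53 to 54 calls after LPS in B6, 50 to 51 in C57 and 48 to 50 in PWD; for PWD minus B6, C57 minus B6 and PWD minus C57 it gave 34 to 40, 26 to 40 and 41 to 45 without treatment and 40 to 43, 46 to 50 and 37 to 41 after LPS. For differences of responses it gave 39 to 44 (PWD minus B6), 27 to 38 (C57 minus B6) and 2 to 6 (PWD minus C57), the 2 without C57 untreated replicate 4, C57 LPS replicate 2 or PWD LPS replicate 2.

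With the replicate block the paired counts were 53, 50 and 49 after LPS in B6, C57 and PWD, and 43, 38 and 4 for the differences of responses; of 165 named gene values 161 kept their side of the threshold, the others being H3c11 (PWD minus B6 untreated), H3c13 (difference, C57 minus B6), Hist1h2bq and H2ac15.

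Values that changed sign were the median difference of responses for PWD minus C57 with mice 3 and 4 alone (-0.0383), H3c13 for PWD minus C57 after LPS with mice 1 and 2 alone (0.0139), and Hist1h2bq after LPS in C57 with mice 1 and 2 alone (0.0255). With median-of-ratios scaling the mean summed level went from 6828 to 3451 in B6, from 8052 to 5409 in C57 and from 5380 to 4004 in PWD. Without the members that share every coding window, an alternative chosen after seeing the data, 45, 43 and 43 of 45 fell after LPS in B6, C57 and PWD. Depth limits cannot be given for TPM.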
